A study of Mus musculus with 6 samples.

Results

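The alpha and beta tubulin isotypes of the interscapular brown fat of newborn mice were followed across 6 bulk RNA-seq libraries. The isotypes were the 10 rows, of 19241 genes in the deposited table, whose symbols were Tuba1a, Tuba1b, Tuba1c, Tuba4a, Tubb2a, Tubb2b, Tubb3, Tubb4b, Tubb5 and Tubb6. Each library held RNA of the whole depot. Newborn mice whose Fstl1 alleles were floxed gave 3 of the libraries (WT). The other 3 (KO) came from newborn mice labelled Myf5-Fstl1 KO, in which Fstl1 is removed from cells with a history of Myf5 expression. Fstl1 encodes a secreted glycoprotein, and Myf5 marks precursors of skeletal muscle and of much of the interscapular brown fat, so cells of other origin in the depot keep the gene. The labels name no Cre line, strain, agent or sex and do not say whether each library is 1 animal, so the spread between libraries may be partly technical. The isotypes were chosen by symbol, with the KO and WT differences of these FPKM values already known. Their KO and WT values are therefore given as a description without p-values. Where isotypes are counted as called in a fit over all genes, that count is also a description and not a test of them. The wider microtubule genes, which are not isotypes of that list, carry the tests. Their lists were also chosen with earlier results of these data known.

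Microtubules are hollow polymers of a dimer of 1 alpha and 1 beta tubulin, and they carry organelle transport, cell shape and the mitotic spindle. Mammals have several genes for each subunit of the dimer. The isotypes they encode have nearly the same globular body and differ mostly in a short, acidic tail at the carboxyl end, which faces outward and is the site of glutamylation and, in most alpha tubulins, of the removal and return of a final tyrosine. Cells also adjust tubulin messenger RNA to the amount of free dimer: the factor Ttc5 recognises the first residues of a nascent tubulin chain and starts the decay of its message. In a fat cell, microtubules and their motors move lipid droplets, mitochondria and vesicles.

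The coding ends of Tuba4a and of the beta isotypes are shown first because they are where the isotypes differ. Each line gives the last 60 coding bases before the stop codon, taken from the GENCODE transcripts of the mouse build GRCm38, which is mm10, the build named in the submitters' processing notes. Capitals mark the acidic codons, those for glutamate and aspartate.
Tuba4a, chr1:75215625-75215684, minus strand: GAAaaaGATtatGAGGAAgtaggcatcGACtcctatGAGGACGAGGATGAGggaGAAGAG
Tubb4b, chr2:25222311-25222370, minus strand: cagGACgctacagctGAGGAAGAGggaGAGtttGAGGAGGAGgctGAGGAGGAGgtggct
Tubb5, chr17:35834985-35835044, minus strand: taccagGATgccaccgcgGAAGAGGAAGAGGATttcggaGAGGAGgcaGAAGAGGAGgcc
Tubb2a, chr13:34074471-34074530, minus strand: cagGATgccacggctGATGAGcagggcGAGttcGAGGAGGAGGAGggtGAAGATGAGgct
Tubb2b, chr13:34127474-34127533, minus strand: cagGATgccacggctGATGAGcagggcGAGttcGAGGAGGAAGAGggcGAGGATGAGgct
Tubb3, chr8:123421620-123421679, plus strand: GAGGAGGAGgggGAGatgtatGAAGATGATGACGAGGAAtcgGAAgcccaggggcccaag
The tail of Tubb6 is not shown. Of the 20 codons in each tail shown, 11 or 12 were acidic. Tuba4a ends in gag, a glutamate codon, and so encodes an alpha tubulin without a final tyrosine. Within the beta group the last 60 bases had a median identity of 54.6% over 15 pairs of isotypes, against 84.1% for the rest of the coding sequence. The most alike of these tails were those of Tubb2a and Tubb2b, at 95% identity. At the other end of the message, Tuba1a, Tuba1b and Tuba1c shared the same first 12 coding bases (atgcgtgagtgc), and Tubb3 and Tubb4b shared theirs (atgagggagatc).

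All 10 genes have 4 exons in the transcripts used, and several lie beside each other. Tuba1b, Tuba1a and Tuba1c occupy chr15:98931425-98934565, chr15:98949837-98953703 and chr15:99029891-99038110. Tubb2a and Tubb2b lie at chr13:34074274-34078007 and chr13:34126748-34130466. The remaining isotypes are single genes: Tuba4a at chr1:75214228-75219865, Tubb4b at chr2:25222160-25224702, Tubb5 at chr17:35833921-35838306, Tubb3 at chr8:123411424-123422015 and Tubb6 at chr18:67390717-67402749. The close copies share long stretches of message. Of all windows of 50 bases in a transcript, 72.9% in Tuba1a, 73.8% in Tuba1b, 61.0% in Tuba1c, 49.6% in Tubb2a, 39.3% in Tubb2b and 50.9% in Tubb4b occur letter for letter in a transcript of another annotated gene. For Tubb4b the most frequent other gene was the processed pseudogene Tubb4b-ps1, with 43.6% of windows. In Tuba4a, Tubb5, Tubb3 and Tubb6 at most 1.11% of windows were shared. How the authors divided reads between copies is not given in the sources used here. The split of reads within Tuba1a, Tuba1b and Tuba1c, and within Tubb2a and Tubb2b, is therefore uncertain, as is that between Tubb4b and its pseudogenes. Sums over Tuba1a, Tuba1b and Tuba1c and over Tubb2a and Tubb2b are given below. For Tubb4b and its pseudogenes no such sum was made.

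Values are FPKM, fragments scaled to transcript length and to library size, so levels of different genes can be compared. The spacing of low values gave a depth per library of 13900000 to 15000000 reads. The targeted gene fitted the labels: Fstl1 stood at 54.4 to 130.04 FPKM in WT and at 7.93 to 13.1 FPKM in KO, which is −2.79 on the log2 scale (SE 0.33, adjusted p 0.00979 in limma). Every KO library carried Y-linked Eif2s3y (83.7 to 99.3 FPKM, against 0 to 0.08 FPKM in WT) and every WT library Xist (44.8 to 85.5 FPKM, against 0.05 to 0.92 FPKM in KO). Genotype and sex cannot be told apart in any KO and WT difference below. All 10 brown adipocyte markers (Ucp1, Cidea, Adipoq, Fabp4 and others) were above 0 in every library, and their summed level was 22255 to 27636 FPKM in WT and 21387 to 23289 FPKM in KO. Fabp4 made up most of that sum, with means of 15810 FPKM in WT and 15037 FPKM in KO. Of the 10, 5 had a negative log2 fold change and 5 a positive one (median 0.03). The negative ones were Plin1, Ebf2 (−1.09), Ucp1 (−1.08), Prdm16 (−0.87) and Fabp4 (−0.07), and the positive ones lay between 0.12 and 0.52. KO held 48.9% of the WT mean of Ucp1, 46.0% of Prdm16 and 44.4% of Ebf2. The part of these markers in the tubulin difference was not tested. The 1 called was Plin1, the lipid droplet coat protein (−1.36, limma adjusted p 0.0267). Because this is bulk tissue, fewer cells of a type and less RNA per cell cannot be told apart.

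The 9 isotypes that passed the filter of a mean of at least 0.5 FPKM all had a lower mean in KO, from 40.8% of the WT mean for Tubb4b to 81.6% for Tubb2b. Their log2 fold changes had a median of −0.72, beside a median of 0.01 over the 13331 genes tested, of which 48.4% were negative. The WT and KO values did not overlap in 7 of the 9, each lower in KO, where 11.4% of all genes tested were lower without overlap. In a limma fit over all genes, 3 of the 9, Tubb4b, Tubb2a and Tuba1b, were among the genes called at an adjusted p under 0.05, where 2.21% of all genes tested were called. These shares stand beside the background as a description only, since the isotypes were chosen with this contrast known. All log2 fold changes are of FPKM + 1, KO minus WT, which understates the change of low genes, most of all those near or below 1 FPKM.

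**Figure D1:**
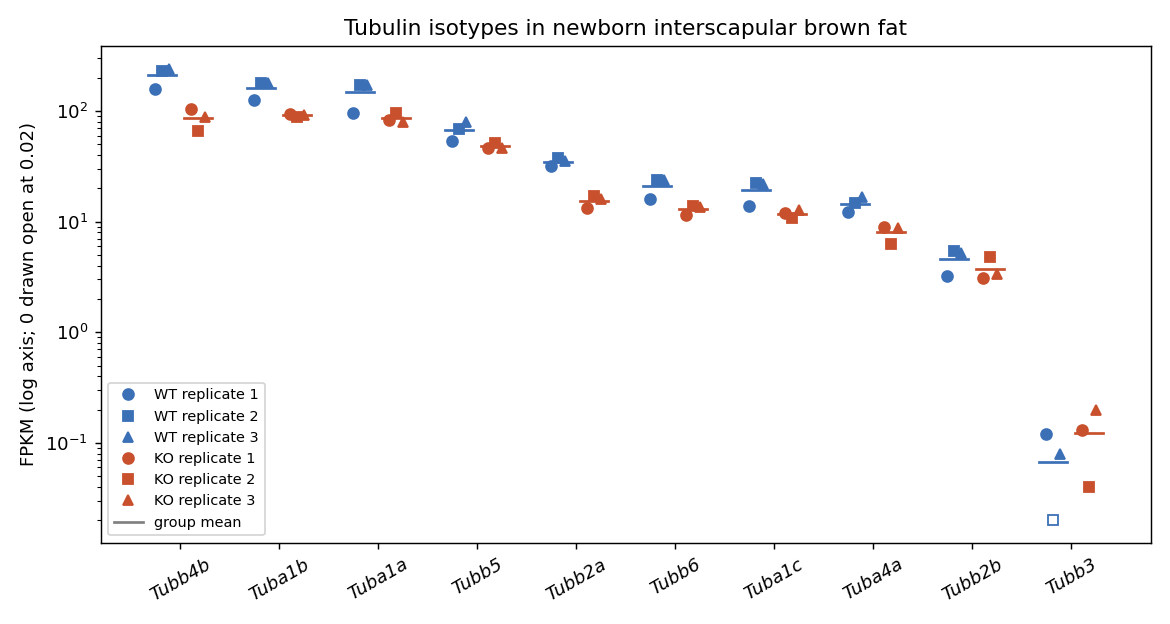
FPKM of each isotype in every library on a log axis, ordered by mean level. Blue marks are WT, orange marks KO, the shape gives the replicate number and the short line the group mean. Tubb4b, Tuba1b and Tuba1a lead, WT replicate 1 (blue circle) is the lowest WT library in each of the 9 isotypes above Tubb3, and Tubb3 stays at or below 0.20 FPKM.

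Among alpha tubulins, Tuba1b and Tuba1a made up most of the message. Tuba1b (Entrez gene 22143), the general alpha isotype of dividing and resting cells, had FPKM of 127, 179 and 179 in the WT libraries, given in the order of replicates 1, 2 and 3 as below, against 94.0, 89.0 and 92.5 in the KO libraries. The KO libraries lay close together and all below the lowest WT library. The means were 161 ± 30.2 and 91.8 ± 2.55 FPKM (SD, n = 3), a log2 fold change of −0.79 (SE 0.16). Tuba1a (22142), best known from the developing nervous system but widespread, had FPKM of 96.03, 173 and 173 in WT against 82.9, 96.7 and 80.1 in KO. Here the groups overlapped, since KO replicate 2 was slightly above WT replicate 1. The log2 fold change was −0.72 (SE 0.23), with means of 147 ± 44.5 and 86.6 ± 8.89 FPKM (SD, n = 3).

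The less abundant alpha isotypes also had lower means in KO, and neither was among the called genes. Tuba1c (22146) had FPKM of 13.7, 22.4 and 21.8 in WT against 11.8, 10.9 and 12.7 in KO, without overlap, for a log2 fold change of −0.64 (SE 0.20). Tuba4a (22145), the isotype without an encoded final tyrosine and one of those found in muscle and platelets, had FPKM of 12.3, 14.7 and 16.6 in WT against 8.93, 6.27 and 8.79 in KO. Its groups did not overlap and its log2 fold change was −0.79 (SE 0.18). The 3 copies that share reads, added together, came to 236, 375 and 374 FPKM in WT, against 189, 197 and 185 FPKM in KO. KO held 58.0% of the WT mean of that sum. The sum leaves out reads shared with genes other than these 3.

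Beta tubulins covered a wider span of differences. Tubb4b (227613), a widely expressed isotype that also builds ciliary axonemes, was the most abundant tubulin in WT, at 158, 229 and 242 FPKM. In KO it stood at 104, 65.5 and 87.7 FPKM. Every KO library was well below every WT library, and KO held 40.8% of the WT mean (210 ± 45.2 and 85.6 ± 19.2 FPKM, SD, n = 3). The log2 fold change, −1.28 (SE 0.22), was the lowest of the 9 isotypes. Tubb2a (22151) was the steadiest of the 9 within WT, with a coefficient of variation of 8.61%. It had FPKM of 31.8, 37.8 and 34.95 in WT against 13.2, 17.1 and 15.9 in KO, a clear gap between the groups. KO held 44.3% of the WT mean, a log2 fold change of −1.13 (SE 0.15). Its neighbour Tubb2b (73710), known mainly from neurons and glia, had FPKM of 3.19, 5.37 and 5.20 in WT against 3.09, 4.79 and 3.35 in KO. Those groups overlapped and the log2 fold change was −0.23, about the size of its SE of 0.21. Added together, the pair came to 34.98, 43.2 and 40.2 FPKM in WT, against 16.3, 21.9 and 19.3 FPKM in KO.

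Tubb5 (22154), the general beta isotype with little sequence shared with other genes, had FPKM of 53.4, 68.7 and 79.3 in WT against 46.2, 51.2 and 46.4 in KO. The groups did not overlap but the gap was narrow, and the log2 fold change of −0.46 (SE 0.17) was smaller than that of Tubb4b or Tubb2a. Tubb6 (67951), a more divergent beta isotype that is known to affect microtubule stability and is seen in regenerating muscle, had FPKM of 16.1, 23.7 and 23.6 in WT against 11.5, 13.8 and 13.6 in KO. Again there was no overlap, with a log2 fold change of −0.65 (SE 0.18). Tubb3 (22152), the neuronal beta isotype, was at or near 0 everywhere: 0.12, 0 and 0.08 FPKM in WT and 0.13, 0.04 and 0.20 FPKM in KO. At the estimated depth these are 0 to 5.5 reads, it did not pass the filter, and no difference was detectable at this depth.

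**Figure D2:**
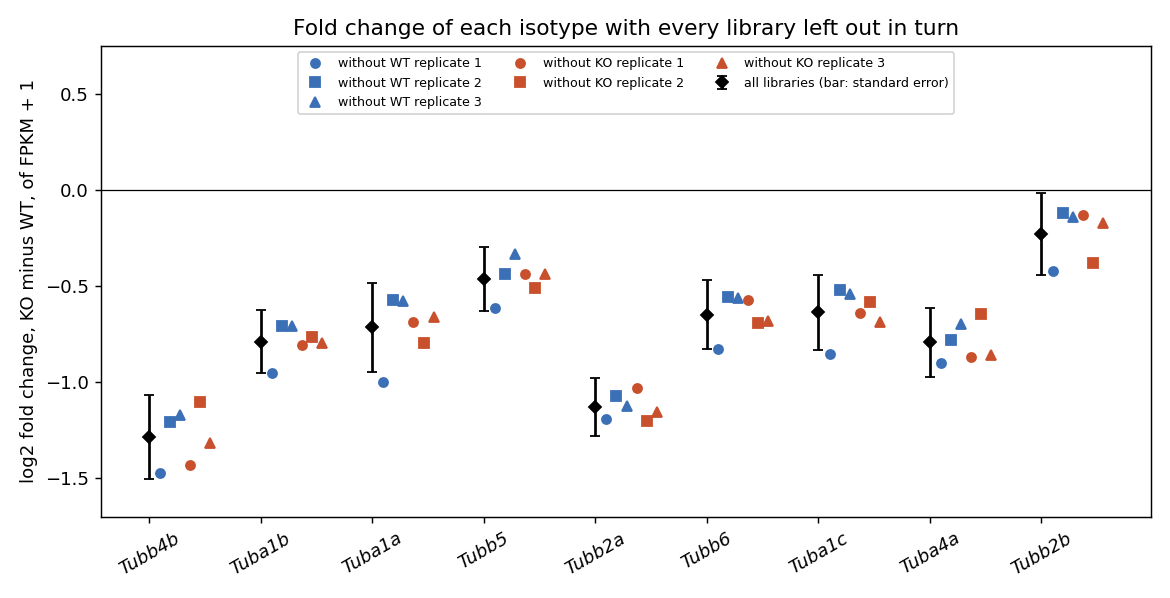
The log2 fold change (KO minus WT, of FPKM + 1) of each isotype that passed the filter, with all libraries (black diamond, bar: standard error) and with each library left out in turn (blue: a WT library, orange: a KO library). Every value lies below 0, which was fixed in advance for the isotypes whose groups did not overlap. Leaving out WT replicate 1 gave the largest difference for all isotypes shown but Tubb2a, as for Tuba1b at −0.95.

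WT replicate 1 was the lowest WT library in all 9 isotypes that passed the filter, and in 2 of them, Tuba1a and Tubb2b, it lay below the highest KO library. Against WT replicate 1 alone, the KO mean was 48.5% for Tubb2a, 54.1% for Tubb4b and 72.6% for Tuba1b, but 90.2% for Tuba1a, 89.8% for Tubb5 and 117% for Tubb2b. Against the mean of WT replicates 2 and 3, the KO mean was 36.3% for Tubb4b, 42.4% for Tubb2a and between 50.004% and 70.8% for the other 7. The number of isotypes called moved with the libraries in the fit. It was 6 without WT replicate 1, where 2.78% of all genes tested were called, and 2 without KO replicate 1, where 0.908% were. It was 1 (Tubb2a) without KO replicate 2 or KO replicate 3, beside 0.668% and 0.653% of all genes. It was 0 without WT replicate 2 or WT replicate 3, beside 0.293% and 0.233%. Both counts were highest without WT replicate 1 and lowest without WT replicate 2 or WT replicate 3. The direction was negative for all 9 in every one of these fits. Only for Tuba1a and Tubb2b, whose groups overlapped, could it have been otherwise.

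Added up, alpha tubulin message came to 248.6, 389 and 390 FPKM in WT, against 198, 203 and 194 FPKM in KO. KO held 57.8% of the WT mean (343 ± 81.5 and 198 ± 4.42 FPKM, SD, n = 3). Beta tubulin message came to 263, 365 and 385 FPKM in WT, against 178, 152 and 167 FPKM in KO, where KO held 49.1% (338 ± 65.6 and 166 ± 12.9 FPKM). The groups did not overlap in either sum, and the KO libraries lay much closer to each other than the WT libraries did. The ratio of the alpha sum to the beta sum, which does not depend on how a library is scaled, was 0.946, 1.07 and 1.01 in WT and 1.11, 1.33 and 1.16 in KO, so that all 3 KO ratios lay above all 3 WT ratios.

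**Figure D3:**
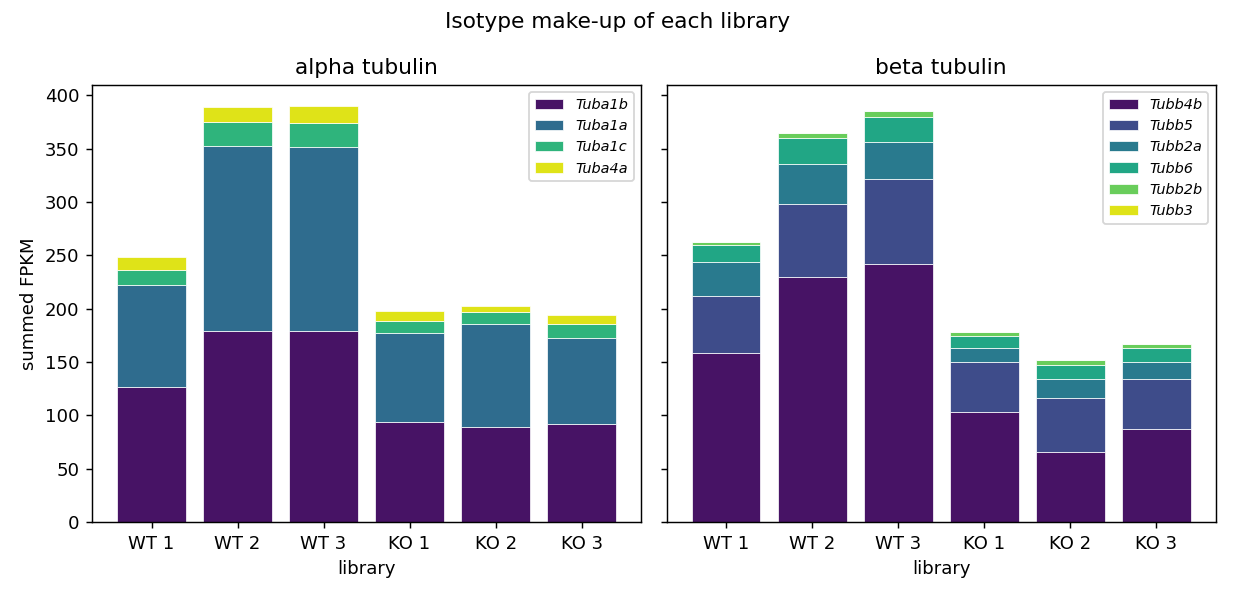
Summed FPKM of the alpha isotypes (left) and beta isotypes (right) in each library, stacked by isotype. The alpha bars of KO stop at 194 to 203 FPKM and the beta bars at 152 to 178 FPKM, below every WT bar, and the Tubb4b block at the base shrinks more than the Tubb5 block above it.

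By the deposited values, the make-up of alpha tubulin was alike in both groups, whereas that of beta tubulin was not. The shares rest on how reads were divided between copies. That split is uncertain for Tuba1a, Tuba1b and Tuba1c, for Tubb2a and Tubb2b, and for Tubb4b and its pseudogenes. Tuba1b held 47.6 ± 2.89% of the alpha sum in WT and 46.4 ± 2.15% in KO (SD, n = 3). Tuba1a held 42.5 ± 3.35% and 43.6 ± 3.52%, with overlapping values in both cases. In the beta sum, Tubb4b held 60.2, 62.8 and 62.8% in WT and 58.3, 43.0 and 52.5% in KO, lower in each KO library. Tubb5 held 20.3, 18.8 and 20.6% in WT and 26.0, 33.6 and 27.8% in KO, higher in each KO library. Tubb2b also held a larger share in each KO library, 1.74 to 3.15% against 1.21 to 1.47%. The shares of Tubb2a (9.07 to 12.1% in WT, 7.44 to 11.2% in KO) and of Tubb6 (6.11 to 6.51% and 6.49 to 9.03%) overlapped. A share rises when its neighbours fall, so these values show unequal change among isotypes and not that any isotype was kept.

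The order of levels differed at the top. In all 3 WT libraries Tubb4b lay above Tuba1b, but in KO it did so in only 1 of 3, and the ranges of these 2 genes overlapped in both groups. Tuba1b and Tuba1a also overlapped in both groups, with Tuba1b higher in 5 of 6 libraries. From there Tubb5 and then Tubb2a followed without overlap in either group. Below them Tubb2a and Tubb6 overlapped in KO only, Tubb6 and Tuba1c overlapped in both groups, and Tuba1c and Tuba4a in WT only. Tubb2b and Tubb3 came last in all 6 libraries.

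By closeness of profile, isotypes were compared with 8366 other genes of at least 5 FPKM, using the root mean square difference of log2 values centred on each gene's mean over the 6 libraries. Nearest to Tuba1b were Baiap2 (0.03), which encodes an actin-linked membrane-bending protein, Tpcn1 (0.08), a two-pore channel of endolysosomes, and Adora2a (0.09), an adenosine receptor. The isotypes nearest to Tuba1b were Tuba1c (0.10) and Tubb6 (0.12), beside a median of 0.47 over the other genes. Of the 50-base windows of Tuba1b, 59.3% occur in Tuba1c, so their profiles may not be independent, which was not tested. Nearest to Tubb4b were Plin1 (0.13), Ptger1 (0.16), a prostaglandin receptor, and Pop7 (0.18), a ribonuclease P subunit. The median for Tubb4b was 0.72, and its nearest isotype was Tuba4a (0.27). Plin1 had FPKM of 174, 309 and 254 in WT against 106, 76.6 and 96.9 in KO, a course close to that of Tubb4b, and is itself one of the 10 brown adipocyte markers. The 6 libraries form 2 groups, so any gene with a like difference between KO and WT scores as close.

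The promoters of the 3 isotypes called in the fit, Tubb4b, Tubb2a and Tuba1b, are shown beside that of Tubb5, the abundant isotype with the smallest difference. Each line holds the 250 bases before the RefSeq start (build GRCm38.p6). For Tuba1b that start lies inside the gene span given above, so much of its window overlaps that span. The window of Tubb5 overlaps its gene span by a few bases. Capitals mark CCAAT boxes (CCAAT on either strand), which bind the factor NF-Y, and GC boxes (GGGCGG on either strand), which bind Sp1.
Tubb4b, chr2:25224703-25224952, minus strand: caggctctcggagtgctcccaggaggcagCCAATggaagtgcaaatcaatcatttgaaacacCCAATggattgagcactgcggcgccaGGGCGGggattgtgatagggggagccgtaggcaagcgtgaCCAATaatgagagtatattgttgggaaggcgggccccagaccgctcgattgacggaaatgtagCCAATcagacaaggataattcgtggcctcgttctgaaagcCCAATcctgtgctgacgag
Tubb2a, chr13:34078009-34078258, minus strand: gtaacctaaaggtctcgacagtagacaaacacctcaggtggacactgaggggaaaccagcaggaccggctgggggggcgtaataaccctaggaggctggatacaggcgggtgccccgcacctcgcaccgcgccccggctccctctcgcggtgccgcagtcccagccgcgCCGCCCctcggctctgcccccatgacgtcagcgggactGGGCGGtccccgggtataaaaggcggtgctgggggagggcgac
Tuba1b, chr15:98934391-98934640, minus strand: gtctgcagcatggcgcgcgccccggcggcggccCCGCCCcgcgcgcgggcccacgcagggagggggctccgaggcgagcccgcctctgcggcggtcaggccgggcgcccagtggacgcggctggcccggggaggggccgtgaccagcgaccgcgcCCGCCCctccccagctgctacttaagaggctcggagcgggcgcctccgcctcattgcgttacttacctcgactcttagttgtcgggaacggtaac
Tubb5, chr17:35838302-35838551, minus strand: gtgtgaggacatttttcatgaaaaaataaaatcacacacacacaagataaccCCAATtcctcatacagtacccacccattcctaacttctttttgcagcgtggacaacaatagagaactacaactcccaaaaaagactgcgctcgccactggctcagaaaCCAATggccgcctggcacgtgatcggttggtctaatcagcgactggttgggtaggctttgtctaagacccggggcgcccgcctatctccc
No 2 of the marked motifs overlap in these windows. Tubb4b held 5 CCAAT boxes, a number reached or passed in 0.213% of the 32851 promoter windows in the RefSeq table, and 1 GC box. Tubb2a held 2 GC boxes, no CCAAT box and a TATA box (TATAAA on either strand) 29 bases before the start, a motif found in 12.4% of all windows. Tuba1b held 2 GC boxes and no CCAAT box, and 75.6% of its window was G or C, against a median of 52.4% over all windows. Tubb5 held 2 CCAAT boxes and no GC box. Of the 8 isotypes with a promoter in the table, 5 held a CCAAT box and 6 a GC box, where 33.9% and 32.7% of all windows did. The cell cycle homology region (TTTGAA on either strand) occurred in Tubb4b alone of the 8, and in 16.0% of all windows. Tubb2b and Tubb6 are without an entry. These matches are letters in a window and not measured binding sites.

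Among the other tubulin genes, 8 were in the table, 5 passed the filter, and none was called (limma, adjusted p under 0.05; 1 of 5 at an unadjusted p under 0.05). Over all genes tested 19.2% had an unadjusted p under 0.05, the share to hold beside this count and those of the lists below. Of the 5 tested, 4 were lower and 1 higher in KO, with a median log2 fold change of −0.48. Tubd1, the delta tubulin of centrioles, had the smallest p, at 3.92, 4.10 and 3.45 FPKM in WT and 2.94, 1.95 and 1.66 FPKM in KO, without overlap (log2 fold change −0.62, SE 0.18, limma adjusted p 0.110). Tubg1, the gamma tubulin that seeds microtubules, had FPKM of 12.5, 21.1 and 24.8 in WT against 14.2, 9.73 and 13.7 in KO (−0.56, limma adjusted p 0.266). WT replicate 1 was again the lowest WT library there, and the groups overlapped. The values of Tubb4a, a brain beta isotype (−0.43, limma adjusted p 0.386), Tuba8 of muscle and testis (−0.48, adjusted p 0.416) and Tube1 of centrioles (0.22, adjusted p 0.436) did not pass either. Of the WT mean, KO held 57.1% for Tubd1, 64.4% for Tubg1, 59.8% for Tubb4a, 43.2% for Tuba8 and 148% for Tube1. Adding 1 to FPKM shrank the log2 fold changes of the low genes among them, so their median is not on a par with that of the more abundant isotypes. Tubb1 of platelets, Tubg2 and Tubal3 stayed at or below 0.72 FPKM and were not tested.

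**Figure D4:**
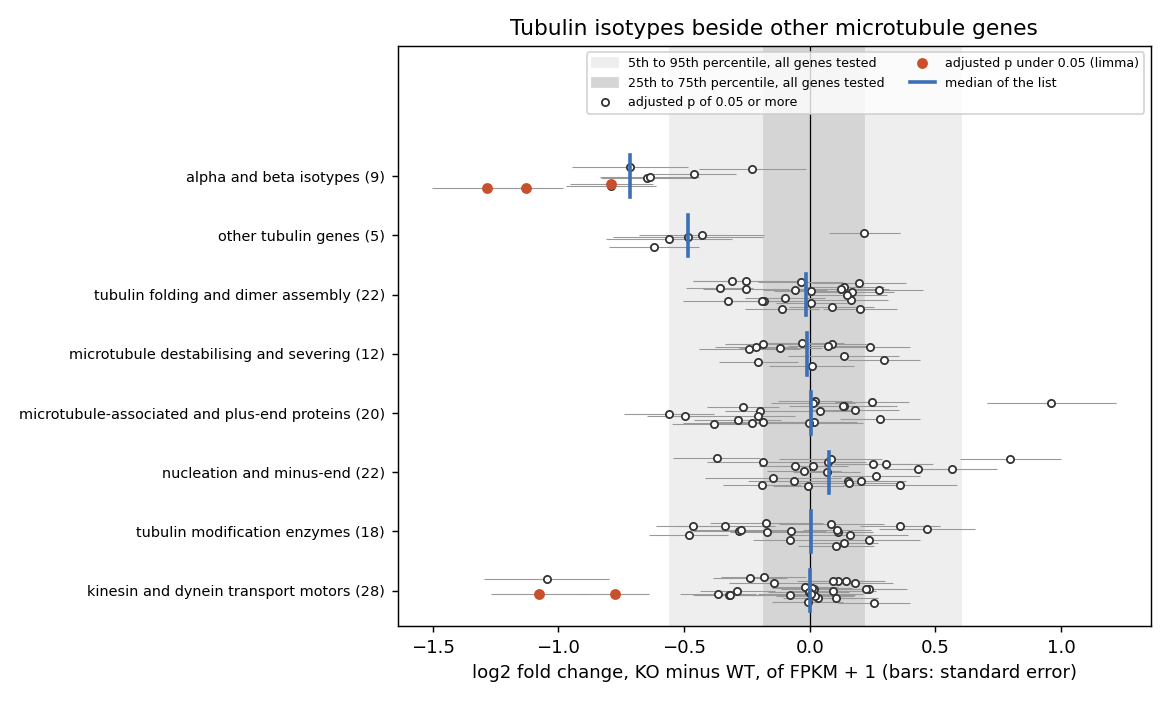
The log2 fold change (KO minus WT, of FPKM + 1; bar: standard error) of the tested alpha and beta isotypes and of 7 lists of other microtubule genes, with the number tested in brackets. Grey bands give the 5th to 95th and 25th to 75th percentiles of all genes tested, blue lines the list medians and filled points the genes called by limma. The isotypes sit to the left of 0 with a median of −0.72, and the 5 other tubulin genes tested have a median of −0.48. Adding 1 to FPKM shrinks the values of low genes, such as Tuba8 among the other tubulin genes. The medians of the 6 lists without tubulin genes lie between −0.02 and 0.08.

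The wider microtubule machinery showed no common direction. Across 7 lists, 127 genes were tested, 62 lower and 65 higher in KO, with a median log2 fold change of 0.01, beside 0.01 over all genes. Only 2 were called, both lower, or 1.57% of those tested beside 2.21% of all genes. Both belonged to the minus-end transport machinery. Dynll2, a dynein light chain, fell from 38.0 ± 3.55 to 17.8 ± 4.37 FPKM (SD, n = 3), with 36.8, 42.0 and 35.2 FPKM in WT and 22.2, 17.7 and 13.4 FPKM in KO (log2 fold change −1.08, SE 0.19, limma adjusted p 0.0324). Dctn5, a subunit of the dynactin complex that couples dynein to its cargo, fell from 61.1 ± 1.75 to 35.4 ± 3.88 FPKM (−0.77, SE 0.14, limma adjusted p 0.0331). Its WT values lay between 59.9 and 63.1 FPKM and its KO values between 32.8 and 39.9 FPKM. Neither call held without WT replicate 2, WT replicate 3, KO replicate 2 or KO replicate 3 (limma, adjusted p 0.0699 to 0.150 in those fits), and Dctn5 was also lost without KO replicate 1 (adjusted p 0.0569). The other 26 tested motor genes were not called. Of the 28 in the motor list, 14 were lower and 14 higher, with a median of 0.00. Without overlap, 7 of the 28 were lower and 2 higher, where 11.4% of all genes tested were lower without overlap. Dynll1, named here after its values were seen, stood at 49.6% of the WT mean (−1.05, limma adjusted p 0.0664). It passed with a filter of 5 FPKM.

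Genes that fold tubulin and assemble the dimer split evenly. Of 22 tested, 11 were lower and 11 higher, and 0 were called (limma; 1 at an unadjusted p under 0.05), with a median of −0.02. Cct3, a subunit of the chaperonin that folds tubulin and actin, stood at 97.3 ± 8.0 FPKM in WT and 75.6 ± 4.39 FPKM in KO (SD, n = 3; −0.36, limma adjusted p 0.195), and the prefoldin subunit Pfdn4 had a log2 fold change of −0.31 (adjusted p 0.323). Ttc5, named here after its values were seen because of its part in tubulin message decay, had FPKM of 11.97, 9.20 and 9.73 in WT against 11.1, 13.1 and 10.3 in KO, with overlap (0.15, limma adjusted p 0.653).

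Destabilising and severing genes were tested for 12 members, 6 lower and 6 higher, with a median of −0.01 and 0 called (limma; 0 at an unadjusted p under 0.05). The severing enzyme Katna1 (0.30, limma adjusted p 0.307) and the depolymerising kinesin Kif2a (0.24, adjusted p 0.455) had the smallest p. Of 20 microtubule-associated and plus-end genes, 10 were lower and 10 higher, with a median of 0.01 and 0 called (4 at an unadjusted p under 0.05). Map7, which recruits kinesin, had FPKM of 4.19, 1.64 and 2.27 in WT against 4.52, 6.83 and 6.66 in KO (0.96, limma adjusted p 0.0917), and passed without WT replicate 1. Tpx2, a spindle assembly factor, had FPKM of 6.21, 6.31 and 7.13 in WT against 4.63, 3.66 and 4.81 in KO (−0.50, adjusted p 0.124).

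For nucleation and minus-end genes, 8 of 22 were lower and 14 higher, with a median of 0.08 and 0 called (limma; 3 at an unadjusted p under 0.05). The smallest p belonged to 2 subunits of augmin, which branches spindle microtubules: Haus3 (0.80, limma adjusted p 0.0780) and Haus1 (0.43, adjusted p 0.134), both without overlap and higher in KO. Of 18 tubulin-modifying genes, 9 were lower and 9 higher, with a median of 0.01 and 0 called (limma; 4 at an unadjusted p under 0.05). Ttl, the ligase that returns the final tyrosine to alpha tubulin, had FPKM of 4.74, 5.15 and 4.92 in WT against 3.50, 3.66 and 2.79 in KO, without overlap (−0.46, limma adjusted p 0.137). Ttll1, a glutamylase of tubulin tails, had a log2 fold change of −0.48 (adjusted p 0.144).

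Markers of other cells that hold much tubulin were read in the same libraries. The summed level of 10 markers of dividing cells was 58.4 to 67.1 FPKM in WT and 45.8 to 53.9 FPKM in KO, without overlap. All 10 had a negative log2 fold change (median −0.33), and 0 were called (limma). Their part in the tubulin difference was not tested. The 10 skeletal muscle markers summed to 1438 to 2098 FPKM in WT and to 378, 1589 and 1917 FPKM in KO, with all 10 negative (median −0.66) and 0 called (limma). KO replicate 1 stood far below the rest there. Neuronal markers were scarce: the 10 summed to 4.43 to 6.36 FPKM in WT and 5 to 6.83 FPKM in KO, and Syt1, Elavl4, Nefl, Th and Dbh were at 0 in at least 1 library. The 8 Schwann cell markers summed to 22.9 to 29.99 FPKM in WT and 22.7 to 26.7 FPKM in KO. The 8 macrophage markers summed to 90.1 to 137 FPKM and 119 to 171 FPKM, all 8 with a positive log2 fold change (median 0.35), the 8 endothelial markers to 495 to 654 FPKM and 512 to 565 FPKM, and the 8 fibroblast markers to 1336 to 1825 FPKM and 1450 to 2520 FPKM, again all 8 positive (median 0.29). The 8 erythroid markers summed to 2809 to 11803 FPKM in WT, highest in WT replicate 3, and to 2562 to 3311 FPKM in KO. The 6 platelet markers summed to 40.1 to 80.8 FPKM in WT and 55.9 to 102 FPKM in KO. In each of these lists other than dividing cells the groups overlapped, and their part in the tubulin difference was not tested.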

How the data were processed

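RNA of the whole interscapular brown fat depot was measured in 6 libraries, 3 WT and 3 KO, grouped by their titles. The authors deposited FPKM values per gene, rounded to 2 decimals, per the file headers. The submitters' processing notes name HISAT2 2.0.4, Bowtie2 2.2.5, DESeq2 and mm10 without their roles. The counting tool and strand handling are not given in the sources used here. FPKM are not counts, so limma 3.58.1 in R 4.3.3 (lmFit, eBayes with trend) was fitted to log2(FPKM + 1) for every gene averaging 0.5 FPKM or more. P-values were adjusted over all tested genes by Benjamini-Hochberg, with a threshold of 0.05. The fit was tried on simulated data with normal noise and a log2 change of 1.5 in 200 of 13202 genes. It called 199 of the 200 and 13 unchanged genes. That change is larger than any isotype difference here, so recovery at the sizes reported was not tested. Depth was estimated from low values of genes with 1 transcript of 500 to 1300 nt: 78.4% to 82.9% of these values lay within 0.2 of whole reads, against 40.7% to 44.8% with shuffled lengths. Identities came from global alignment in Biopython 1.88. The isotypes and lists were chosen with earlier results of these data known. Besides the isotypes and the other tubulin genes, each list's called genes are named, or else its 2 with the smallest p, and the 3 genes nearest in profile to the leading alpha and beta isotype. The alternatives were other pseudocounts, filters, scalings and eBayes settings, the replicate number as a block, and leaving out each library. The coding ends of some isotypes are not reported here.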

Additional observations from a re-analysis of the deposited data

How the results depend on the processing

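Under the 16 alternatives the 9 isotypes kept a negative log2 fold change, from −1.47 for Tubb4b to −0.12 for Tubb2b, which a filter of 5 FPKM leaves out. Other filters, eBayes settings and the replicate block do not alter a fold change, so those fits could not turn its sign. For the 7 isotypes whose groups did not overlap, another pseudocount or a left-out library could not do so either. Tubb3, tested only without a filter, was not negative. Past the threshold were Tubb2a in 14, Tubb4b in 10 and Tuba1b in 8 of 16. Of all genes, 295 were called in the fit described, 35 without the filter on low values, 191 with a common sum of FPKM and 31 to 370 leaving out each library in turn. The share of lower genes among the calls, 45.4%, was 25.8% when KO replicate 2 was left out, 29.9% for KO replicate 3 and 55.4% for KO replicate 1. Of the isotypes, 3 were called, beside 2.21% of all genes tested, and 1 without the filter, beside 0.182%. Leaving out each library, 0 to 6 isotypes were called, beside 0.233% to 2.78% of all genes. Of the related genes, 2 were called, 0 without the filter and 0 to 3 leaving out each library. Fewer samples weaken a fit by construction, and more genes tested add to the adjustment. Why the counts moved otherwise was not tested. The all-gene median stayed within 0.1 of its value under each scaling. The alpha and beta sums, computed under the 3 scalings and with each of the 6 libraries left out, moved by less than the spread between libraries. Leaving out a library can hardly move a group mean by more than that spread, so that part could hardly have come out otherwise. WT and KO share replicate numbers, whose deviations correlated at 0.07, 0.04 and 0.04 across genes, so they were not taken as pairs, although every library correlated best with its own number. With the replicate block 167 genes (1.25% of those tested), 1 isotype (Tubb2a) and 1 related gene (Dynll2) were called. Depth limits Tubb3 and the other genes at under 0.2 FPKM.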
